A study of Mus musculus with 7 samples.

Results

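The 37 genes described here carry out mitosis, the stage of the cell cycle in which condensed chromosomes are separated and the cell divides. They were chosen by name, with earlier results of these data known. All 37 were found among the 36666 rows of the gene table, as rows with exactly these symbols. The samples were cerebral cortex of C57BL/6 mice, 4 from embryos at embryonic day 17 and 3 from young adults of unstated age, with no genotype or treatment named in the labels for either group. The labels do not say whether samples came from separate animals or pools, and the p-values therefore reflect only the spread among these samples, which may be technical. Libraries made with an mRNA kit were sequenced, and each sample held 18444271 to 23606525 reads in genes. Levels are reads per 1000000 reads in genes (CPM), given per sample or as mean ± SD with n = 4 embryonic and n = 3 adult samples. Differences are adult minus embryonic means on the deposited scale, which follows log2 where a gene has many reads and shrinks the fold where it has few, with limma's adjusted p over all genes tested.

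Entry into mitosis is driven by the kinase Cdk1 bound to A-type and B-type cyclins. Condensins then compact the chromosomes, and kinetochores attach them to a spindle of microtubules, while the spindle checkpoint delays anaphase until every kinetochore is attached. The anaphase-promoting complex (APC/C), a ubiquitin ligase, ends the delay by marking cyclin B and securin for destruction, and a contractile ring divides the cell. In the embryonic cortex the dividing cells are mostly radial glia next to the ventricle and intermediate progenitors above them, whereas cortical neurons are postmitotic. In the adult, precursors of oligodendrocytes are the main cells known to divide within the cortex itself.

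Of the 37 genes, 36 were lower in adult than in embryonic cortex and 1, Anln, was higher. Among all 22828 genes tested, 33.9% were called lower and 35.8% higher in the adult. The median difference of the 37 genes was -3.54, beside 0.03 over all genes tested. The ranges of the 3 adult and the 4 embryonic samples did not overlap in any of the 37, as the plot of levels by sample shows. The share of all genes without such overlap was not counted, so the 37 of 37 cannot be set against it. By limma's call, a different measure, 69.7% of all genes tested differed in either direction. Adjusted p ran from 2.77e-12 for Mki67 to 4.07e-06 for Incenp. Against a null of 2-fold, 34 of the 36 still passed in limma's treat, where 8.47% of all genes were called lower. Incenp and Mad2l1 did not pass it. In bulk tissue, fewer dividing cells and less RNA per cell cannot be told apart.

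The fall was uneven. Summed over the 36 genes, the level was 1402, 1544, 1140.5 and 1230.0 CPM in embryonic samples 1 to 4 and 124, 129 and 119 CPM in adult samples 1 to 3. The adult mean of single genes was under 2% of the embryonic mean in 6 genes, under 5% in 13 and under 10% in 26, and the remaining 10 kept 10% or more. The median of the 36 was 6.66%. No adult sample lacked reads of any member, but 7 members had fewer than 20 reads in every adult sample, so their adult levels are imprecise.

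**Figure D1:**
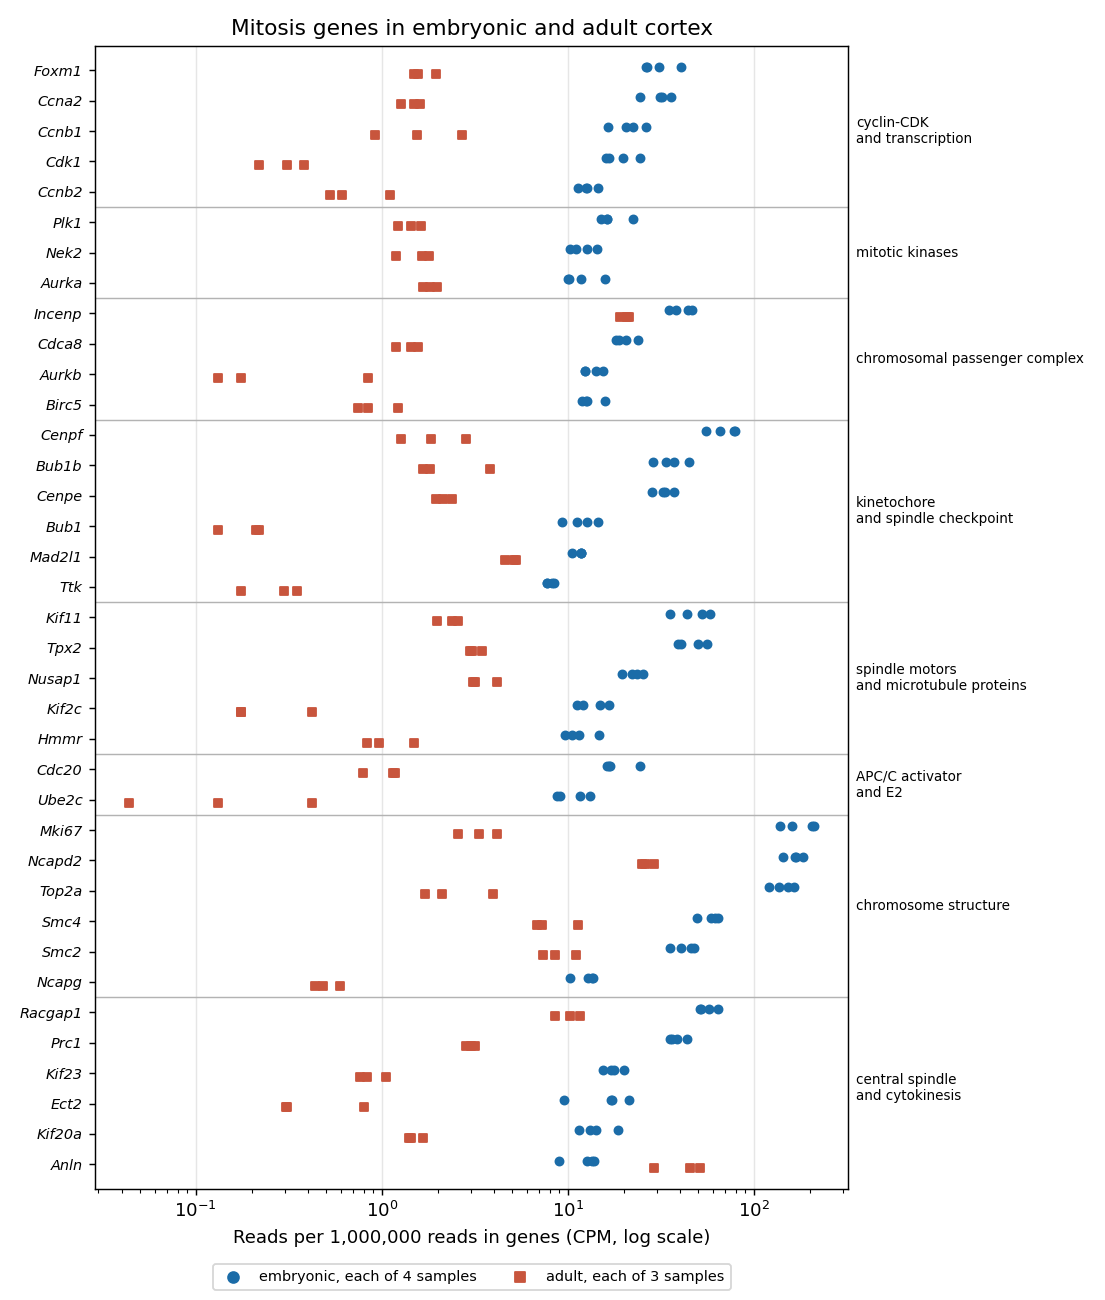
Reads per 1000000 reads in genes (log axis) of the 37 mitosis genes, grouped by role, with 1 point for each of the 4 embryonic (circles) and 3 adult (squares) samples. The adult points lie left of the embryonic points in 36 genes and right of them in Anln, and they come closest to the embryonic points in Incenp and Mad2l1.

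The cyclins and Cdk1, which start mitosis, all fell. Cdk1, the kinase itself, stood at 19.9, 24.3, 16.1 and 16.7 CPM in embryonic samples 1 to 4 and at 0.218, 0.381 and 0.308 CPM in adult samples 1 to 3, which rested on 5, 9 and 7 reads. The adult mean was 1.57% of the embryonic one (difference -4.92, SE 0.17, adjusted p = 1.41e-11). Cyclin A2 (Ccna2), which acts with Cdk1 at mitotic entry, fell from 30.8 ± 4.67 to 1.46 ± 0.169 CPM. The B-type cyclins fell too, Ccnb1 from 21.4 ± 4.08 to 1.72 ± 0.911 CPM and Ccnb2 from 12.8 ± 1.32 to 0.747 ± 0.31 CPM. Relative to the mean, their adult SD was larger than their embryonic one, with Ccnb1 at 0.916, 2.71 and 1.54 CPM in adult samples 1 to 3. Foxm1, a transcription factor that activates genes of this stage, fell from 31.02 ± 6.55 to 1.67 ± 0.243 CPM.

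Kinases of the spindle poles and centrosomes also fell. Plk1, a kinase of spindle and centrosome, went from 17.5 ± 3.34 to 1.43 ± 0.20 CPM. Aurka, the Aurora kinase of the centrosome, was at 10.2, 15.8, 10.02 and 11.8 CPM in the embryonic and at 1.66, 1.82 and 1.98 CPM in the adult samples (difference -2.33, SE 0.15, adjusted p = 8.64e-09). Nek2, which separates the centrosomes, went from 12.1 ± 1.82 to 1.54 ± 0.315 CPM. Aurka kept 15.2% and Nek2 12.8% of their embryonic level. Both are among the genes with differences nearest to 0 in the plot of differences.

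The mRNAs of the chromosomal passenger complex, whose 4 proteins correct faulty attachments and later guide cytokinesis, fell to different extents. Aurkb, its kinase, stood at 14.2, 15.4, 12.3 and 12.3 CPM in the embryo and at 0.131, 0.847 and 0.176 CPM in the adult, the latter from 3, 20 and 4 reads. Adult sample 2 was well above the others, and without it the adult mean was 0.153 instead of 0.385 CPM. Birc5 (survivin) fell from 13.2 ± 1.78 to 0.939 ± 0.25 CPM and Cdca8 (borealin) from 20.3 ± 2.59 to 1.4 ± 0.195 CPM. Incenp, the scaffold that binds the other members, stood at 46.4, 44.4, 38.2 and 34.98 CPM in the embryo and at 19.2, 20.9 and 21.2 CPM in the adult. It kept 49.8% of its embryonic level, the most of the 36 genes that fell (difference -0.89, SE 0.11, adjusted p = 4.07e-06).

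Among kinetochore and checkpoint genes, Bub1, a checkpoint kinase, was at 11.2, 14.5, 9.32 and 12.7 CPM in the embryonic samples and at 0.131, 0.212 and 0.22 CPM in the adult ones, from 3, 5 and 5 reads. Its adult mean was 1.57% of the embryonic one. Cenpf, a large kinetochore protein, fell from 69.7 ± 11.4 to 1.98 ± 0.795 CPM and Ttk (Mps1), the kinase that starts the checkpoint signal, from 8.04 ± 0.363 to 0.274 ± 0.0888 CPM. Bub1b (BubR1), part of the complex that inhibits the APC/C, fell from 36.02 ± 6.6 to 2.43 ± 1.19 CPM, and Cenpe, a kinetochore motor, from 32.8 ± 3.67 to 2.15 ± 0.214 CPM. Mad2l1 (Mad2), which also belongs to the inhibitory complex, kept more of its level. It stood at 11.8, 11.8, 10.5 and 11.8 CPM in the embryo and at 5.11, 5.25 and 4.62 CPM in the adult (difference -1.03, SE 0.11, adjusted p = 8.85e-07), so that the adult mean was 43.4% of the embryonic one.

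Spindle genes fell as well. Kif11 (Eg5), the motor that pushes the spindle poles apart, went from 47.4 ± 9.92 to 2.31 ± 0.303 CPM, and Tpx2, which activates Aurora A on the spindle, from 46.6 ± 8.06 to 3.16 ± 0.275 CPM. Kif2c, a kinesin that shortens microtubules, fell from 13.7 ± 2.51 to 0.258 ± 0.143 CPM, which is 1.89% of the embryonic level. Nusap1 and Hmmr, which bind spindle microtubules, fell from 22.6 ± 2.46 to 3.47 ± 0.588 CPM and, for Hmmr, from 11.6 ± 2.21 to 1.09 ± 0.343 CPM. Of the genes acting with the APC/C, its activator Cdc20 fell from 18.5 ± 3.91 to 1.04 ± 0.214 CPM. Ube2c, its ubiquitin-conjugating enzyme, had 3, 10 and 1 reads in adult samples 1 to 3 against 186 to 296 reads in each embryonic sample, and its level fell from 10.6 ± 2.1 to 0.20 ± 0.199 CPM. Without adult sample 2 its adult mean was 0.0874 CPM.

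**Figure D2:**
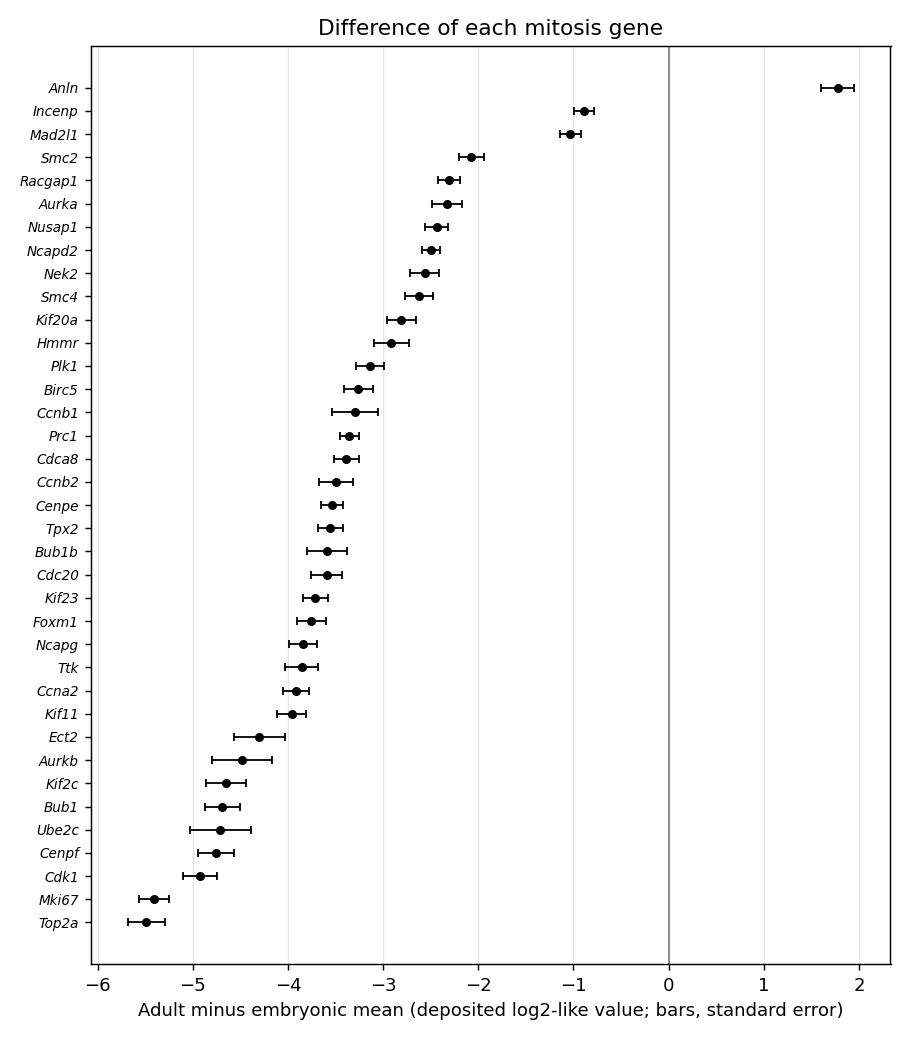
Adult minus embryonic mean of each of the 37 genes on the deposited log2-like scale, in order of size, with the standard error from limma as bars (n = 4 embryonic and n = 3 adult samples). Top2a and Mki67 lie lowest at -5.49 and -5.41, Mad2l1 and Incenp are closest to 0 among those that fell, and Anln is the only gene above 0.

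Genes of chromosome structure included the 3 members with the highest embryonic CPM, Mki67, Ncapd2 and Top2a. Mki67, which coats mitotic chromosomes and is the usual marker of proliferation, stood at 205, 210.5, 137 and 159.8 CPM in the embryo and at 3.32, 4.15 and 2.55 CPM in the adult. Top2a, the topoisomerase that untangles sister chromatids, stood at 153, 165, 121 and 137 CPM in the embryo and at 1.7, 3.94 and 2.11 CPM in the adult. On the deposited scale these were the 2 largest falls of the 37 genes, at -5.41 (SE 0.16) and -5.49 (SE 0.19). On recovered counts in voom, the largest were in Ube2c (-5.93), Cdk1 (-5.85) and Top2a (-5.82), whose order among the falls therefore depends on the scale.

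The 4 condensin subunits in the list fell by unlike amounts. Ncapg, a subunit found only in condensin I, fell from 12.6 ± 1.58 to 0.504 ± 0.0794 CPM, to 4.02%. The ATPase subunits Smc2 and Smc4, which both condensins share, fell from 42.3 ± 5.53 to 8.995 ± 1.91 CPM (21.3%) and, for Smc4, from 58.5 ± 6.49 to 8.5 ± 2.51 CPM (14.5%). Ncapd2, also of condensin I, was at 166, 183, 168 and 143 CPM in the embryo and at 25.2, 26.1 and 29.2 CPM in the adult, which is 16.3%. Per kilobase of exon in GENCODE M21, Ncapd2 had the highest embryonic level of the 37 genes, with 35.6 ± 3.59 CPM per kb, ahead of Top2a with 27.6 ± 3.65. Its condensin partners had 13.5 ± 1.5 (Smc4), 7.83 ± 1.02 (Smc2) and 3.39 ± 0.425 (Ncapg) CPM per kb. In the adult, Anln led with 9.1 ± 2.49 CPM per kb, followed by Incenp with 6.29 ± 0.339 and Ncapd2 with 5.79 ± 0.453. The adult ranges of Incenp and Ncapd2 per kb overlap within 1 SD.

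Cytokinesis genes fell, apart from Anln. Kif23, the kinesin of the central spindle, went from 17.6 ± 1.84 to 0.882 ± 0.148 CPM, Prc1, which bundles its microtubules, from 38.5 ± 3.7 to 3.01 ± 0.164 CPM, and Kif20a, another kinesin of this structure, from 14.4 ± 3.07 to 1.5 ± 0.147 CPM. Ect2, the exchange factor that activates RhoA at the division plane, fell from 16.3 ± 4.89 to 0.473 ± 0.288 CPM. Its embryonic coefficient of variation was the largest of the 37 genes, with 17.2, 21.3, 9.55 and 17.1 CPM, and its adult mean was 0.307 CPM without adult sample 2. Racgap1, which works with Kif23 and Ect2, also fell, from 56.2 ± 5.97 to 10.1 ± 1.55 CPM, and kept 18.04%.

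Anln encodes anillin, which ties actin, myosin and septins together at the contractile ring and is also known as a septin-binding component of myelin in the central nervous system. It stood at 13.4, 12.7, 8.99 and 13.9 CPM in embryonic samples 1 to 4 and at 51.4, 29.2 and 45.1 CPM in adult samples 1 to 3. The adult mean was 3.42 times the embryonic one (difference 1.78, SE 0.17, adjusted p = 5.58e-07). Among 7 genes of myelinating oligodendrocytes, chosen after the rise of Anln was seen, 7 rose. Their summed level was 59.6 to 65.8 CPM in the embryonic and 5216, 7466 and 4157 CPM in adult samples 1 to 3. Adult sample 2 thus held the most myelin mRNA and the least Anln of the 3. The share of these cells in the rise of Anln was not tested.

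Markers of cell classes that divide changed in different directions. Of 9 radial glia genes, 6 fell and 2 rose, with summed levels of 1409 to 1486 CPM in the embryonic and 657 to 699 CPM in the adult samples. Most of the adult sum was Slc1a3, which rose from 133 ± 6.0 to 526 ± 38.2 CPM. Nes fell from 191 ± 23.3 to 14.5 ± 4.12 CPM, Tnc from 337 ± 10.9 to 8.12 ± 3.76 CPM and Fabp7 from 435 ± 35.5 to 18.9 ± 14.8 CPM. Of 6 genes of intermediate progenitors, 4 fell and 0 rose, with summed levels of 223 to 305 CPM in the embryonic and 30.6 to 58.2 CPM in the adult samples. Most of the adult sum was Btg2 (18.2 ± 7.75 CPM) and Gadd45g (15.6 ± 5.5 CPM), which were not called. Eomes fell from 86.7 ± 10.6 to 0.924 ± 0.0352 CPM and Neurog2 from 49.7 ± 8.98 to 1.26 ± 0.196 CPM. Of 8 genes of the ganglionic eminences and neuroblasts 7 fell, with 257 to 335 against 61.9 to 73.8 CPM. The count of 0 for intermediate progenitors was the same in limma at an unadjusted p under 0.05 and in voom, and the other 2 genes of that list, Btg2 and Gadd45g, had adjusted p of 0.89 and 0.971 in limma. All 6 genes of oligodendrocyte precursors rose, with 109 to 117 CPM in the embryonic and 326 to 474 CPM in the adult samples. The highest of them in the adult were Olig1 (115 ± 31.4 CPM) and Gpr17 (81.2 ± 34.8 CPM). Pdgfra rose from 37 ± 1.26 to 77.4 ± 6.52 CPM and Cspg4 from 18.3 ± 1.08 to 29.1 ± 0.474 CPM. Whether the cells that hold these mRNAs divide was not tested. In these 4 lists, 1 marker was at 0 in a sample, Neurog1 in adult sample 3, after 2 reads in each of adult samples 1 and 2.

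Summed levels of the other marker lists in the embryonic and adult samples were as follows. Within the cortex they covered cortical neurons (4 fell and 2 rose of 7 tested, 1478 to 1574 against 1873 to 1980.3 CPM), microglia (0 fell and 8 rose of 8 tested, 30.3 to 35.3 against 312 to 319.6 CPM) and endothelium (1 fell and 4 rose of 7 tested, 129.8 to 145 against 182 to 200.3 CPM). For tissue around the cortex they covered choroid plexus (0 fell and 6 rose of 6 tested, 1.14 to 2.7 against 571 to 698 CPM), meninges (0 fell and 6 rose of 6 tested, 3.63 to 6.72 against 68.1 to 77.8 CPM) and ependyma (0 fell and 4 rose of 4 tested). The sums of ependyma genes, 5.96 to 7.44 against 23.8 to 33.3 CPM, are over 6 genes and so include Ccdc153 and Tmem212, which the filter on low values left out of the test. The erythroid list, which includes globin genes, had 2 of 6 genes lower, 1 higher and 3 not called, at 535 to 806 against 201 to 505 CPM. The defining cortical factors Emx1 and Tbr1 were present in both groups, at 28.8 and 266 CPM in the embryo and 15.8 and 97.6 CPM in the adult. The part of these cells in the levels of mitosis genes was not tested.

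The embryonic samples differed among themselves in these genes together. Embryonic sample 2 was the highest of the 4 in 30 of the 37 genes and sample 3 the lowest in 28. The same counts were 60 and 76 of 128 genes in a wider mitosis list, described below, and 21 and 19 of 32 DNA replication genes. The shares over all genes were not counted. The median ratio of a gene's level to its embryonic mean was 1.18 in sample 2, 1.03 in sample 1, 0.933 in sample 4 and 0.843 in sample 3. The coefficient of variation of single genes had a median of 15.2% and ran from 4.51% in Ttk to 30.01% in Ect2. Genes of DNA replication summed to 802, 888, 751 and 782 CPM in embryonic samples 1 to 4, and those of intermediate progenitors to 270.2, 305, 223 and 236 CPM. Both therefore had their highest sum in sample 2 and their lowest in sample 3, as the mitosis genes did. So did the erythroid list, at 788, 806, 535 and 652 CPM in samples 1 to 4. Genes of the ganglionic eminences and neuroblasts, at 301, 335, 266 and 257 CPM, were highest in sample 2 and lowest in sample 4. Radial glia genes summed to 1444, 1486, 1423 and 1409 CPM, a narrower range with its lowest value in sample 4. That sum joins genes of unlike order. Of its 9 genes, 3 (Pax6, Sox2 and Vim) were highest in sample 2, and 5 were lowest in sample 3. Fabp7 was instead highest in sample 3, at 397, 420, 481 and 441 CPM in samples 1 to 4. What sets these samples apart was not tested, and the 36 genes that fell and Anln were called without any 1 of them.

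**Figure D3:**
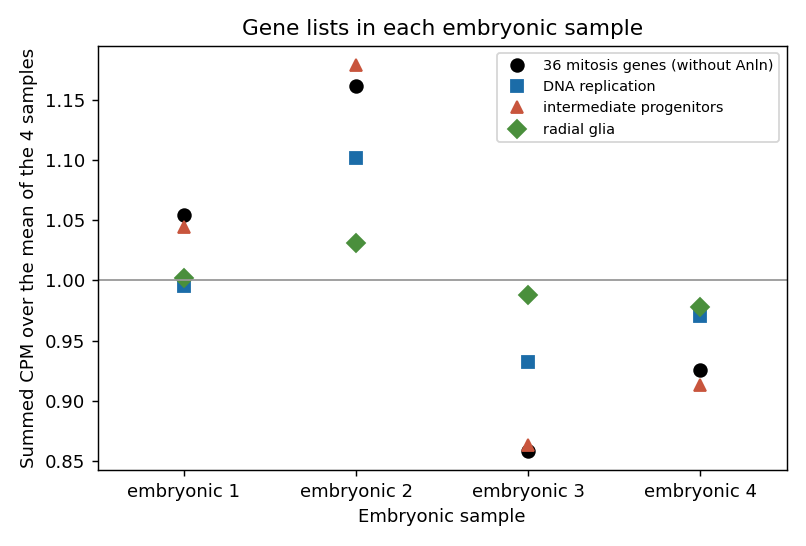
Summed CPM of 4 gene lists in each embryonic sample, divided by the mean of the 4 samples for that list. Mitosis genes, DNA replication and intermediate progenitors are highest in sample 2 and lowest in sample 3. The radial glia sum varies least, though its single genes differ in their order of samples.

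In the adult samples no single library was highest throughout. Adult sample 2 was the highest in 17 of the 37 genes, sample 1 in 12 and sample 3 in 8. The 5 genes of the cyclin and Cdk1 group were all highest in adult sample 2, and so were Top2a, Mki67, Aurkb, Ube2c and Ect2. Bub1b and Smc4 were highest in sample 1, with 3.8, 1.82 and 1.67 CPM and 11.4, 6.82 and 7.3 CPM in samples 1 to 3. Oligodendrocyte precursor genes summed to 358, 474 and 326 CPM and intermediate progenitor genes to 36.9, 58.2 and 30.6 CPM in the same order of samples, and both sums were highest in sample 2. Of the single genes, 4 of 6 and 3 of 6 were highest there. Pdgfra (78.9, 70.2 and 83.0 CPM) and Eomes (0.96, 0.89 and 0.924 CPM) were lowest in sample 2. Btg2 (16.3, 26.7 and 11.6 CPM) and Gadd45g (12.3, 21.9 and 12.4 CPM) were highest in it. The part of either cell class in the adult levels was not tested. Without adult sample 2, limma again called 36 genes lower and 1 higher.

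A table of exons gave a second readout, the share of a gene's reads that falls in each exon, and it held 2 of the 37 genes, Ncapd2 with 32 exons and Incenp with 17. In limma's diffSplice, a test of an exon relative to the rest of the gene, 4.86% of all 86181 exons tested were called. No exon of Ncapd2 was called (lowest adjusted p = 0.41), so its level fell with no detectable shift among exons at this depth. In Incenp, a gene on the minus strand of chromosome 19, 5 of 17 were called. Counted from the 5′ end of the exons in the table, exons 1, 2, 6 and 7 held a smaller share in the adult and exon 10 a larger one.

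The first Incenp exon in the table, at position 9969811 (mm9), held 4.76, 3.85, 3.85 and 4.0% of the gene's reads in embryonic samples 1 to 4 and 3.23, 2.22 and 0.621% in adult samples 1 to 3 (adjusted p = 0.000156). The adult shares all lay below the embryonic ones and rested on an estimated mean of 9.37 reads over the 3 adult samples. The whole gene had 439, 493 and 482 reads in adult samples 1 to 3, so the lowest share, in sample 3, rested on the fewest reads. Exon 7, at 9958395, went from 9.63 ± 1.2% to 4.88 ± 0.583% (adjusted p = 0.0139), and exon 10, at 9952809, from 4.998 ± 0.648% to 7.03 ± 0.728% (adjusted p = 0.0126). Exon 9 held under 1% in both groups and was used to divide the gene, a choice made after the values were seen. The 8 exons 5′ of it held 55.7, 52.8, 55.98 and 58.9% in embryonic samples 1 to 4 and 38.7, 40.8 and 32.01% in adult samples 1 to 3, and each of the 8 had a lower adult mean. The shares of all exons sum to over 100% in a sample, and whether reads across junctions were counted in each exon was not tested. Multiplied by the level of the gene, the 5′ exons went from 22.8 ± 2.36 to 7.57 ± 0.874 CPM, to 33.2% of the embryonic level. The 8 exons 3′ of it went from 32.2 ± 4.71 to 19.4 ± 1.37 CPM, to 60.3%. Because the shares sum to over 100%, the values of both sides add to more than the level of the gene and are not separate parts of it. Each share is 100% divided by a whole number, so large shares move in coarse steps. The first exon was called in all 10 alternative fits, and the other 4 in 5 to 7 of them. Called exons numbered 2 without embryonic sample 1 and 3 without embryonic sample 2, 3 or 4 or adult sample 1.

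**Figure D4:**
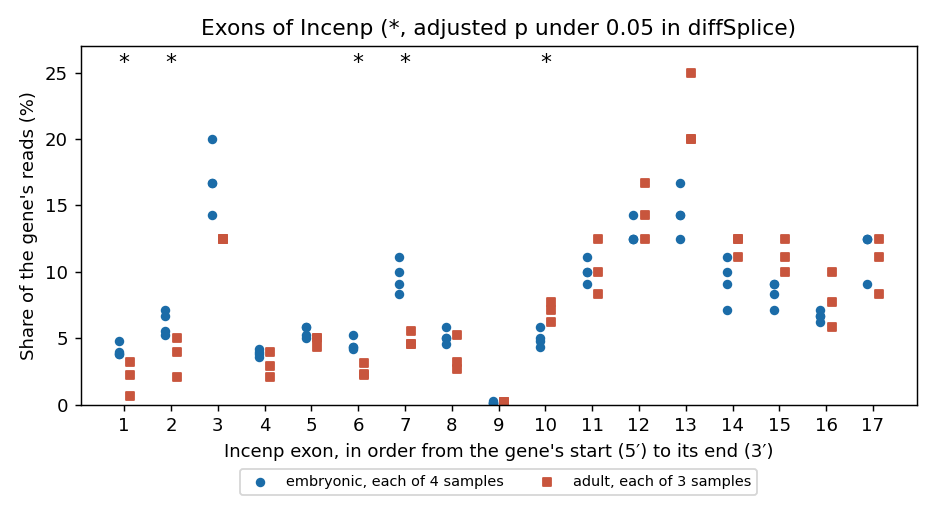
Share of the Incenp reads (%) in each of its 17 exons in the table, in order from 5′ to 3′, with 1 point per sample (4 embryonic, circles; 3 adult, squares) and a star above the 5 exons called in diffSplice. The adult points tend to lie below the embryonic ones in exons 1 to 8, whose adult means are all lower, and above them in most of exons 10 to 16.

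A wider list of mitosis genes held 134 names, of which 128 were in the table. Of these, 104 fell, 11 rose and 13 were not called, against 33.9% of all genes lower and 35.8% higher. Their median difference was -1.25. Against a 2-fold null, 62 of the 128 were lower and 5 higher. Centring each sample on its median moved the median of all genes by -0.18, so that genes near 0 can change their call.

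Of 30 further kinetochore genes, 28 fell and 1, Zwint, rose (median difference -1.93). Casc5 (Knl1) and Spc25, both of the microtubule-binding outer kinetochore, fell from 15.2 ± 4.42 to 0.333 ± 0.0312 CPM and, for Spc25, from 13.8 ± 1.82 to 0.461 ± 0.101 CPM. Zwint, a partner of the outer kinetochore that was also found as a binding partner of the synaptic protein SNAP-25, rose from 154 ± 8.97 to 479 ± 10.6 CPM. Mis12 was not called (26.9 ± 0.97 against 22.8 ± 1.5 CPM), though it was called lower after centring and on log2(CPM + 1). Of 31 spindle genes 27 fell and 0 rose, with 4 not called (median -1.54). The kinesin Kif18b and the spindle protein Dlgap5 fell from 10.2 ± 1.84 to 0.229 ± 0.174 CPM and, for Dlgap5, from 10.2 ± 1.54 to 0.257 ± 0.222 CPM. Without adult sample 2 their adult means were 0.132 and 0.132 CPM. Kif3a, a motor of cilia and axonal transport, was not called (230.5 ± 4.73 against 198 ± 3.57 CPM, adjusted p = 0.081), though it was called lower after the samples were centred on their medians, in voom and on log2(CPM + 1).

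Of 15 APC/C genes, 13 fell and 0 rose, with a median difference of -0.74. The largest fall was in Fbxo5 (Emi1), an inhibitor of the complex rather than a subunit, from 10.96 ± 0.538 to 1.62 ± 0.119 CPM. The subunit Cdc26 fell from 55.4 ± 4.67 to 21.5 ± 1.22 CPM, and Anapc11 was not called (46.99 ± 3.17 against 39.1 ± 3.05 CPM), though it was called lower after centring, in voom and on log2(CPM + 1). Of 17 genes of cohesin and separase, 13 fell and 1 rose, with a median of -0.98. Esco2 and Cdca5 (sororin), which establish and guard cohesion in dividing cells, fell from 6.51 ± 0.879 to 0.16 ± 0.093 CPM and, for Cdca5, from 5.42 ± 0.688 to 0.159 ± 0.0525 CPM. The cohesin ring subunits Smc1a, Smc3 and Rad21, chosen after their values were seen, fell by 0.98, 1.09 and 0.68, and Rad21 still stood at 112 ± 8.95 CPM in the adult. Pds5b, a cohesin regulator, was not called (133 ± 19.1 against 124 ± 10.999 CPM). Pttg1 (securin), the inhibitor of separase that the APC/C destroys, rose from 3.31 ± 0.345 to 20.6 ± 2.11 CPM, with 23.04, 19.1 and 19.7 CPM in adult samples 1 to 3.

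Of 4 further condensin genes, 3 fell and 0 rose (median difference -1.15). Ncaph, of condensin I, fell from 16.995 ± 1.89 to 1.24 ± 0.236 CPM. Ncapg2, of condensin II, fell from 25.7 ± 5.21 to 6.001 ± 0.425 CPM, and Ncaph2, also of condensin II, was not called (60.6 ± 3.45 against 56.7 ± 2.68 CPM) except lower after centring. Of 17 regulators of mitotic entry and exit, 11 fell and 5 rose (median -1.55). The kinase Pbk and the phosphatase Cdc25c, which activates Cdk1, fell from 15.9 ± 2.14 to 0.488 ± 0.283 CPM and, for Cdc25c, from 5.6 ± 0.496 to 0.245 ± 0.0632 CPM. Ensa and Arpp19, related inhibitors of the phosphatase PP2A, rose from 112 ± 3.4 to 268 ± 8.35 CPM and, for Arpp19, from 129 ± 14.1 to 264 ± 31.3 CPM. Lin54, a subunit of the complex that recognises promoters of these genes, was not called (13.9 ± 2.4 against 13.4 ± 1.51 CPM).

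Of 14 cytokinesis genes, 9 fell and 4 rose (median -0.997). Depdc1a and Iqgap3 fell from 3.59 ± 1.13 to 0.0287 ± 0.0248 CPM and, for Iqgap3, from 13.2 ± 2.74 to 0.49 ± 0.202 CPM. Depdc1a had 1, 1 and 0 reads in adult samples 1 to 3. Cit, whose gene makes both citron kinase of the midbody and a shorter neuronal form that gene-level reads do not separate, rose from 26.8 ± 2.38 to 249 ± 24.4 CPM, and stood at 263, 262 and 220.4 CPM in adult samples 1 to 3. The kinase Rock2 rose from 93.6 ± 8.31 to 254 ± 28.9 CPM, and Rhoa was not called (114 ± 4.68 against 113 ± 8.91 CPM). For comparison, 32 of 32 genes of DNA replication fell with a median difference of -2.16, among them Rrm2, a subunit of ribonucleotide reductase, from 39.4 ± 5.35 to 1.46 ± 0.249 CPM, and Pole, a replicative polymerase, from 25.1 ± 3.005 to 1.8 ± 0.115 CPM. Whether these lists differ from the 37 genes in size was not tested. In the lists with 0 genes higher (spindle, APC/C, condensin and DNA replication), 0 genes were higher in limma at an unadjusted p under 0.05, and 0 in voom on recovered counts.

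**Figure D5:**
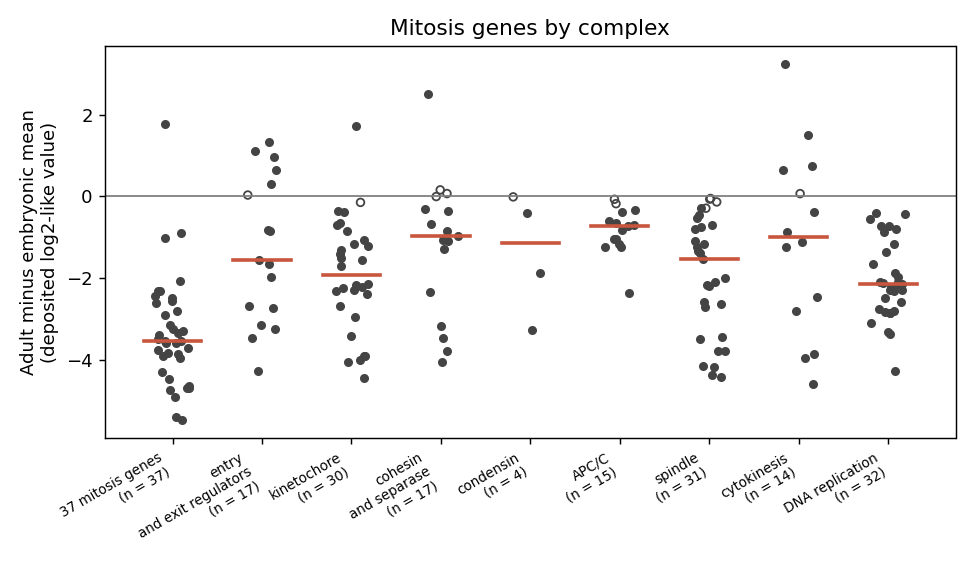
Adult minus embryonic mean on the deposited log2-like scale for the 37 genes, 7 wider lists of mitosis genes and DNA replication, with 1 point per gene (filled where called by limma, open where not) and a line at each median. The 37 genes have a median of -3.54, the medians of the 7 wider lists run from -1.93 (kinetochore) to -0.74 (APC/C), and genes called above 0 appear in 5 of the 9 groups.

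Promoters of the 37 genes were read for elements known from genes of this stage. Whether these elements have a part in the fall was not tested. The element TTTGAA or TTCGAA, named the cell cycle genes homology region, is bound by the MuvB complex with B-Myb or FoxM1, and CCAAT is bound by NF-Y. RefSeq promoters of build GRCm38.p6, from 250 bases before to 50 after a start site, were given for 30 of the 37 genes, with 32 promoters in all. Not matched were Aurkb, Ccna2, Foxm1, Incenp, Kif20a, Smc4 and Tpx2. TTTGAA or TTCGAA was found on either strand in 24 of the 30 genes (80.0%), against 21.7% of all 27025 genes in the table. CCAAT was found on either strand in 25 of 30 (83.3%), against 41.1% of genes, and at least 2 times in 16 (53.3%), against 13.3%. Both kinds of motif were present in 22 of 30 (73.3%), against 8.61% of genes. Within 50 bases of the start on either side, TTTGAA or TTCGAA occurred in 21 of 30 genes (70.0%), against 6.12%. These counts are matches to letters and not evidence of binding, and no test was made.

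The next 5 promoters show the range, printed 5′ to 3′ on the strand of the gene with matches to CCAAT and to TTTGAA or TTCGAA on either strand in capitals, so that ATTGG and TTCAAA are matches on the other strand. Cdk1 (chr10:69352863-69353162, minus strand), Plk1 (chr7:122159185-122159484, plus strand) and Top2a (chr11:99024140-99024439, minus strand) are genes that fell and hold both kinds of motif. Mad2l1 (chr6:66534971-66535270, plus strand), which kept 43.4% of its level, holds neither in this window. Anln (chr9:22389157-22389456, minus strand), the gene that rose, holds TTTGAA 2 times and no CCAAT.
Cdk1: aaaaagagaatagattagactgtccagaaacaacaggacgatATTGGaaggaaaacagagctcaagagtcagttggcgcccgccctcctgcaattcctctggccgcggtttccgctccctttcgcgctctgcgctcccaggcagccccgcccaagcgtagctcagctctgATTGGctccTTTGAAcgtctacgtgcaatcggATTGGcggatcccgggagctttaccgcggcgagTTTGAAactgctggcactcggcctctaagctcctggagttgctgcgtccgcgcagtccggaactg
Plk1: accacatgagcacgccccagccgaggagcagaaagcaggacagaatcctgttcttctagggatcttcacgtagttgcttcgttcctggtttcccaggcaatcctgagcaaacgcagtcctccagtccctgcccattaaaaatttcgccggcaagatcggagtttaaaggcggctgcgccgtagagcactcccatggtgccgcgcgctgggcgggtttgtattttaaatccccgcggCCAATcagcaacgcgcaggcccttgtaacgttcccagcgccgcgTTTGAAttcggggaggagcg
Top2a: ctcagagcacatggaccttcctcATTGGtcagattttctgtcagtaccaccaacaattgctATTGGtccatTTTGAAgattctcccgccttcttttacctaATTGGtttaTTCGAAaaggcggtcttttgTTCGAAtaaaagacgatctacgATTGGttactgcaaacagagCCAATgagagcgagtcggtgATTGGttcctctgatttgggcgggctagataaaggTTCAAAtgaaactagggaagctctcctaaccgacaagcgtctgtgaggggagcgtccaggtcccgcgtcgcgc
Mad2l1: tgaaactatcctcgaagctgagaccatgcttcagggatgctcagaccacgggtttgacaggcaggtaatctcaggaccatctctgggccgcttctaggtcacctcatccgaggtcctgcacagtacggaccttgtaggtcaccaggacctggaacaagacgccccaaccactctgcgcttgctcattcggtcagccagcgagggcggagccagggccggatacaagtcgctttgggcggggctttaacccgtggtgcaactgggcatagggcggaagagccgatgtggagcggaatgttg
Anln: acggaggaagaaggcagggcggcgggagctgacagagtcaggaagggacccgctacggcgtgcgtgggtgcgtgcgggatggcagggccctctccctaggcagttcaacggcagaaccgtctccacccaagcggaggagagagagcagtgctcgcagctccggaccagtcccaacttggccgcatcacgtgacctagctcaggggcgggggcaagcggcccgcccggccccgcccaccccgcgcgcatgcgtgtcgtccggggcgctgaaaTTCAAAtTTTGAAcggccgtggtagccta

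In Cdk1 the matches to TTTGAA begin 71 and 15 bases before the start site, with CCAAT matches beginning 208, 80 and 48 bases before it. In Plk1 the CCAAT match begins 14 bases before and the TTTGAA match at base 31 after the start. Top2a holds 6 matches to CCAAT, 2 to TTTGAA and 2 to TTCGAA. The 3 matched genes with neither kind of motif in the window were Mad2l1, Birc5 and Nusap1, of which Birc5 fell to 7.12% and Nusap1 to 15.3% of the embryonic level.

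Reads of overlapping genes limit some of these values, because no source used here says if the authors counted by strand. In GENCODE M21, exons of 10 of the 37 genes overlap exons of another gene. Cdc20 overlaps Elovl1, Ube2c overlaps Tnnc2, Prc1 overlaps Rccd1, Nusap1 overlaps Oip5, Kif20a overlaps Cdc23, Ccna2 overlaps Exosc9 and Ncapg overlaps Lcorl, each on the opposite strand. Foxm1 overlaps Tex52 on the same strand, and Foxm1, Plk1 and Nek2 overlap gene models without a name. Their levels may include reads of the partner. Incenp, Mad2l1, Ncapd2 and Anln, the genes that fell least or rose and the most abundant condensin gene, have no such overlap.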

How the data were processed

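The deposited gene values are variance-stabilized on a log2-like scale, per the file headers and the values. The deposited exon values are a variance-stabilized score of gene reads over exon reads, per the file headers. The submitters' processing notes name, without roles, build mm9, HTSeq 0.5.3p3, TopHat 1.0.13, SAMtools 0.1.7a, Bowtie 0.12.7.0 and CASAVA 1.7.1, and no source used here names the tool of the stabilization. Read counts were recovered from the regular steps of the gene values (at least 99.9945% of values within 0.1 of a whole number) and used for levels (CPM).

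Tests used limma 3.58.1 (R 4.3.3; lmFit, eBayes with trend, two-sided) on the deposited values of 4 embryonic and 3 adult samples. Genes were tested if at most 3 of the 7 samples sat at the lowest value of their column, and p was adjusted by Benjamini-Hochberg over 22828 genes, with a threshold of 0.05. Exons were tested with diffSplice. Samples of a group differed by more than sampling noise (chi-square per degree of freedom 4.83 to 17.7). The 37 genes and all lists were chosen with earlier results of these data known. Outside the 37, the genes named from each mitosis or replication list are the 2 called genes with the largest difference in each direction and the uncalled gene with the highest mean. Of the wider list, Bora, Ska2, Ska3, Mau2, Sept7 and Sept9 matched no row. Alternatives were the filter, centring, eBayes without trend, a 2-fold null, voom with TMM on recovered counts, log2(CPM + 1) and log2(CPM + 0.1), a replicate block, each sample left out and, added after seeing the data, 1 pair of samples left out.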

Additional observations from a re-analysis of the deposited data

Results flagged for a closer look

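In 4 of 67 values examined, 1 embryonic sample lay far from the other 3 by Dixon's criterion, which chance meets in about 1 in 20 groups. Mad2l1 was at 10.5 CPM in embryonic sample 3 and at 11.8 CPM in each of the others, a gap of 0.95 of the range. Cdc20 was at 24.3 CPM in embryonic sample 2 and at 16.2 to 16.8 CPM in the others (0.928). The summed level of Plk1, Aurka and Nek2 was 52.6 CPM in embryonic sample 2 and 37.1 to 39.1 CPM in the others (0.866). Choroid plexus genes summed to 2.7 CPM in embryonic sample 2 and to 1.14 to 1.34 CPM in the others (0.871).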

How the results depend on the processing

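The 36 lower calls and the higher call of Anln were made under every alternative run except the 2-fold null, where Incenp and Mad2l1 were lost and 34 lower calls and Anln remained. Against that null the wider list had 62 lower and 5 higher calls instead of 104 and 11, and all genes 1933 lower and 3203 higher instead of 7736 and 8180. After centring, the counts of all genes lower in adult and all genes higher in adult were 9047 and 7001, so that 43.6% of calls were higher instead of 51.4%. Called exons of Incenp numbered 5, and from 2 to 5 with 1 sample left out.

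Same-numbered embryonic and adult samples correlated at 0.00879, 0.0567 and 0.0405 in their deviations from the group means, so the numbers were not taken to pair them, although each of the 3 correlated best with its own number. With the replicate number as a block on samples 1 to 3, 36 of the 37 genes were lower and 1 higher, the counts of all genes lower in adult and all genes higher in adult were 7497 and 8031, and 3 exons of Incenp were called. The exon fit without trend was not run, since diffSplice uses none. Adult means of the rarest genes rest on few reads, down to 1 read in a sample for the 37 genes and to 0 for other genes named.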
